A study of Mus musculus with 96 samples.

Results

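The genes described here are the phase II conjugation enzymes and carboxylesterases of the mouse liver. They were chosen by name: the rows whose symbol begins as a glutathione S-transferase of class alpha, mu, pi, theta, zeta, kappa or omega (Gsta, Gstm, Gstp, Gstt, Gstz, Gstk, Gsto), a microsomal glutathione S-transferase (Mgst), a UDP-glucuronosyltransferase (Ugt1 to Ugt3), a sulfotransferase (Sult1 to Sult5) or a carboxylesterase (Ces1 to Ces5), with 1 further matching row left out by the rule. This gave 46 of the 7394 genes: 18 of the glutathione transferase family, 2 of them microsomal, 12 Ugt, 5 Sult and 11 Ces. The rule reads gene names only. GeoMx spatial transcriptomics counts barcoded probes released from outlined areas of illumination (AOIs) of a tissue section.

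Livers came from male mice in 4 groups of 4. HetKO HFD mice were heterozygous for a knockout of Gaa, the lysosomal acid alpha-glucosidase that breaks down glycogen, and received a high-fat diet. Wt HFD mice were wild type on the same diet, and HetKO LFD and Wt LFD mice were the same genotypes on a low-fat diet. All mice went on their diet at 8 weeks of age and stayed on it for 15 weeks. Carriers had been backcrossed to C57BL/6. The allele has LoxP sites inserted on both sides of a pair of Gaa exons, which per the methods disrupts transcription in the whole body, so every liver cell of a HetKO mouse was heterozygous. In each mouse 3 AOIs were placed in the perivenous zone, around the central vein, and 3 in the periportal zone, guided by stains for Cyp2e1 and E-cadherin. Cdh1, the E-cadherin gene, and Cyp2e1 are therefore no findings between zones. AOIs of 1 mouse and zone were averaged, so that each group and zone has 4 values. The table of AOI properties names 1 slide for the 8 LFD livers and another for the 8 HFD livers, so diet and slide cannot be told apart.

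Phase II enzymes attach a polar group to drugs, hormones, bile pigments and reactive lipid products, which makes them soluble enough for bile or urine. Glutathione transferases attach glutathione, Ugt enzymes glucuronic acid and Sult enzymes sulfate, while carboxylesterases cut ester and amide bonds in drugs and in stored lipid. The liver lobule is zoned: blood enters at the portal side rich in oxygen and leaves at the central vein, and many enzymes of drug metabolism are known to lie mostly around the central vein.

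Values are normalized counts, scaled in every AOI to an upper quartile of 60.2. The limit of quantification (LOQ) is the one deposited for each AOI. The negative probe, which has no target, gives the background. Deduplicated reads per AOI ranged from 60874 to 1772443. The libraries stood apart in background. The negative probe read 20.5 to 38.9 normalized counts in the perivenous AOIs of Wt HFD mice and 21.2 to 36.6 in their periportal AOIs, with Wt HFD mouse 1 lowest in both, against 14.4 to 24.6 and 12.1 to 22 in Wt LFD mice. It read 20.7 to 27.6 in HetKO HFD mice and 16.4 to 22.8 in HetKO LFD mice. Of all member values, 50% and 51.4% were above the LOQ in the perivenous and periportal AOIs of Wt HFD mouse 1, but only 20.3% to 33.3% in Wt HFD mice 2 to 4. The shares by mouse were 39.1% to 66.7% (HFD) and 58.7% to 89.9% (LFD) among HetKO mice, and 44.9% to 91.3% among Wt LFD mice. Counts of members in comparisons with the Wt HFD group are therefore also given without its mouse 1.

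Gaa averaged 40.96 ± 5.28 in HetKO HFD and 46.3 ± 7.28 in Wt HFD perivenous zones, and 42.6 ± 10.8 in HetKO HFD and 48.9 ± 7.99 in Wt HFD periportal zones (SD, n = 4 mice each). On the LFD it averaged 44.8 ± 7.79 in HetKO and 62.2 ± 5.84 in Wt perivenous zones, and 50.5 ± 7.38 in HetKO and 73.4 ± 5.38 in Wt periportal zones (SD, n = 4 each). It was lower in HetKO mice in all 4 comparisons, but none passed limma's test over all genes. On the HFD the log2 differences were -0.18 (perivenous) and -0.25 (periportal), with Gaa above the LOQ in only 1 to 3 of 12 AOIs. On the LFD they were -0.48 and -0.53 (limma, unadjusted p = 0.00598 and 0.00211), with 8 to 12 of 12 AOIs above it. No HetKO LFD mouse reached the lowest Wt LFD mouse of its zone (highest 55.3 against 57.6, and 59.03 against 67.9). The sources used here name inserted LoxP sites and not where the probe binds. The zone labels fitted most of their markers. These lists include Cyp2e1 (perivenous) and Cdh1 (periportal), whose stains guided the AOIs, so those genes are no check of the labels. All 5 perivenous hepatocyte markers were higher in the perivenous zone in all 4 groups, and of 5 periportal ones 4 (HFD) and 5 (LFD) were lower there in HetKO and 4 (HFD) and 5 (LFD) in Wt mice. The medians on the log2 scale were 2.72 and -1.79 in Wt HFD mice and 4.15 and -3.46 in Wt LFD mice. On the HFD against the LFD, 4 of 5 perivenous markers were lower in HetKO (median -0.88) and 4 in Wt perivenous zones (-1.66), and 4 of 5 periportal markers were lower in HetKO (-0.87) and 4 in Wt periportal zones (-1.52). Markers of hepatocytes (4 of 5 in the table) were at 0 in no group. Their summed level in perivenous zones averaged 18955 (HetKO) and 10766 (Wt) normalized counts on the HFD, and 29624 (HetKO) and 28596 (Wt) on the LFD. In bulk AOIs, fewer cells of a type and less RNA per cell cannot be told apart.

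Of the 46 members, 44 exceeded the LOQ in 10 or more of the 96 AOIs and were tested. Gsta5 (above it in 4 AOIs) and Ugt1a9 (7 AOIs) were not. Gsta5 averaged 24.9 to 35.3 normalized counts over the 8 groups and zones, and Ugt1a9 20.2 to 36.6, both near the level of the negative probe. Ces1c, Gsta3, Gstp1, Gstz1 and Mgst1 were above the LOQ in all 96 AOIs. Near the limit lay Gstm4 (10 AOIs), Ugt1a5 (14), Ugt2b35 (16), Gsta4 and Sult5a1 (18 each) and Mgst3 and Sult1b1 (24 each). In perivenous zones, members that exceeded it in 6 or more of 12 AOIs numbered 27 (HetKO) and 16 (Wt) on the HFD. On the LFD they numbered 38 (HetKO) and 37 (Wt). These were 58.7%, 34.8%, 82.6% and 80.4% of members, beside 38.3%, 14.3%, 65.7% and 55.7% of all genes. In periportal zones such members numbered 22 (HetKO) and 12 (Wt) on the HFD and 31 (HetKO) and 29 (Wt) on the LFD. These were 47.8%, 26.1%, 67.4% and 63% of members, beside 36.3%, 15.4%, 64% and 48.6% of all genes. Many members sit in clusters of close relatives. The 6 Gstm genes span chr3:107926334-108045179, the 3 Gstt genes chr10:75774117-75837419, the 6 Ugt2 genes chr5:86889770-87424203 and the 11 Ces genes chr8:93056725-105093929 (GRCm38). The 5 Ugt1a genes at chr1:88070779-88220002 share exons. Where each probe binds is not given in the sources used here, so sharing of signal among such neighbours was not tested.

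Promoter sequence is shown for Gstp1, which was lower in perivenous zones, and for 5 glutathione transferase genes that were higher there, 3 of them neighbours in the Gstm cluster. Each run holds the 150 bases before the gene's outermost start in the RefSeq promoter set (GRCm38.p6), 5′ to 3′ on the gene's strand. Capitals mark matches to the motifs named below. The Gsta3 gene is annotated from chr1:21240565, so the end of its run, up to chr1:21240584, lies inside the gene.
Gstm1: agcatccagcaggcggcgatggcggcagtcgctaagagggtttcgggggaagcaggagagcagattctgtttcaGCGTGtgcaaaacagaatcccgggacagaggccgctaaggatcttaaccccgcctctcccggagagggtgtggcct
Gstm2: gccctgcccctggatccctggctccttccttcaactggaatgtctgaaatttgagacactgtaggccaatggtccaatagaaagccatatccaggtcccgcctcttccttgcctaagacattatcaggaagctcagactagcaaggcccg
Gstm3: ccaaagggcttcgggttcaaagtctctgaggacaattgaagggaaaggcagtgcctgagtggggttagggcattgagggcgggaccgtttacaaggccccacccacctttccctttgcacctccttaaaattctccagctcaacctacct
Gsta3: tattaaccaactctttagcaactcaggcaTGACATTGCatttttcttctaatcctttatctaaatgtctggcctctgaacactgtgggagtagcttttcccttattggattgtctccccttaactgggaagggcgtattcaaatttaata
Mgst1: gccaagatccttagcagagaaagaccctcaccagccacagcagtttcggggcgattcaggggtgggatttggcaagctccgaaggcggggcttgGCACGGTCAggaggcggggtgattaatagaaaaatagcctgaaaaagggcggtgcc
Gstp1: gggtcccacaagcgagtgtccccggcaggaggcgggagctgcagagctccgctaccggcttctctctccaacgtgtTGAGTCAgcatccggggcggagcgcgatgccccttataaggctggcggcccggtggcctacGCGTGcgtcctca

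These windows lie at chr3:108017974-108018123 (Gstm1, minus strand), chr3:107986421-107986570 (Gstm2, minus), chr3:107969175-107969324 (Gstm3, minus), chr1:21240435-21240584 (Gsta3, plus), chr6:138140377-138140526 (Mgst1, plus) and chr19:4037913-4038062 (Gstp1, minus). The 250 bases before the start were searched on both strands in the 39 members with a promoter in the table. TGACNNNGC, the core of the antioxidant response element, was in 3 members (Gsta3, Gstm7 and Mgst1) and in 10.2% of 32851 promoters. GCGTG, the core bound by the dioxin receptor, was in 6 members, Gstm1 and Gstp1 among them, and in 28.2% of promoters. TGANTCA, the AP-1 core, was in 5 members (Gstp1, Ugt1a6a, Ugt2b1, Ugt2b35 and Ugt2b38) and in 6.75% of promoters. TATAAA was in 4 members (Ces1g, Ces3b, Gstm1 and Gstm7) and in 12.4% of promoters. The Gstm2 and Gstm3 runs hold no match in the stretch shown. None of the matches shown overlap. A match describes letters and not a bound site.

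The first comparison asked how the members differed between the zones of a lobule. In Wt LFD livers 16 of 44 tested members passed the test, 15 higher and 1 lower in the perivenous zone, among them most mu-class glutathione transferases, Gsta3, Ugt2b1, Ugt1a1, Ces2c and Ces1d. Gstp1 was the 1 that was lower. Of all 6805 genes, 3.31% were higher and 3.61% lower in the perivenous zone of Wt LFD livers. In HetKO LFD livers 23 members passed, 20 higher and 3 lower, against 4.23% of all genes higher and 3.84% lower, and without HetKO LFD mouse 1 the 23 became 15 (4.53% of all genes passed). In HetKO HFD livers 13 members were higher and 2 lower, against 2.95% and 2.95% of all genes. In Wt HFD livers, the group with the highest background, 5 were higher and 1 lower, against 0.911% and 1.63% of all genes, and without Wt HFD mouse 1 these were 4 and 1 (1.76% of all genes passed). Scaled by nuclei, the scaling the methods describe, 34 members (HFD) and 1 (LFD) passed between HetKO zones and 0 (HFD) and 1 (LFD) between Wt zones, beside 3781, 23, 5 and 29 of all 6805 genes. The median log2 difference of the tested members was 0.21 (HFD) and 0.33 (LFD) in HetKO livers, beside 0.03 and -0.0035 over all genes tested, and 0.10 (HFD) and 0.34 (LFD) in Wt livers, beside -0.01 and 0.01. A log2 difference of 1 is a doubling, and every difference here is perivenous minus periportal within a mouse, tested with limma and the mouse as a block.

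**Figure D1:**
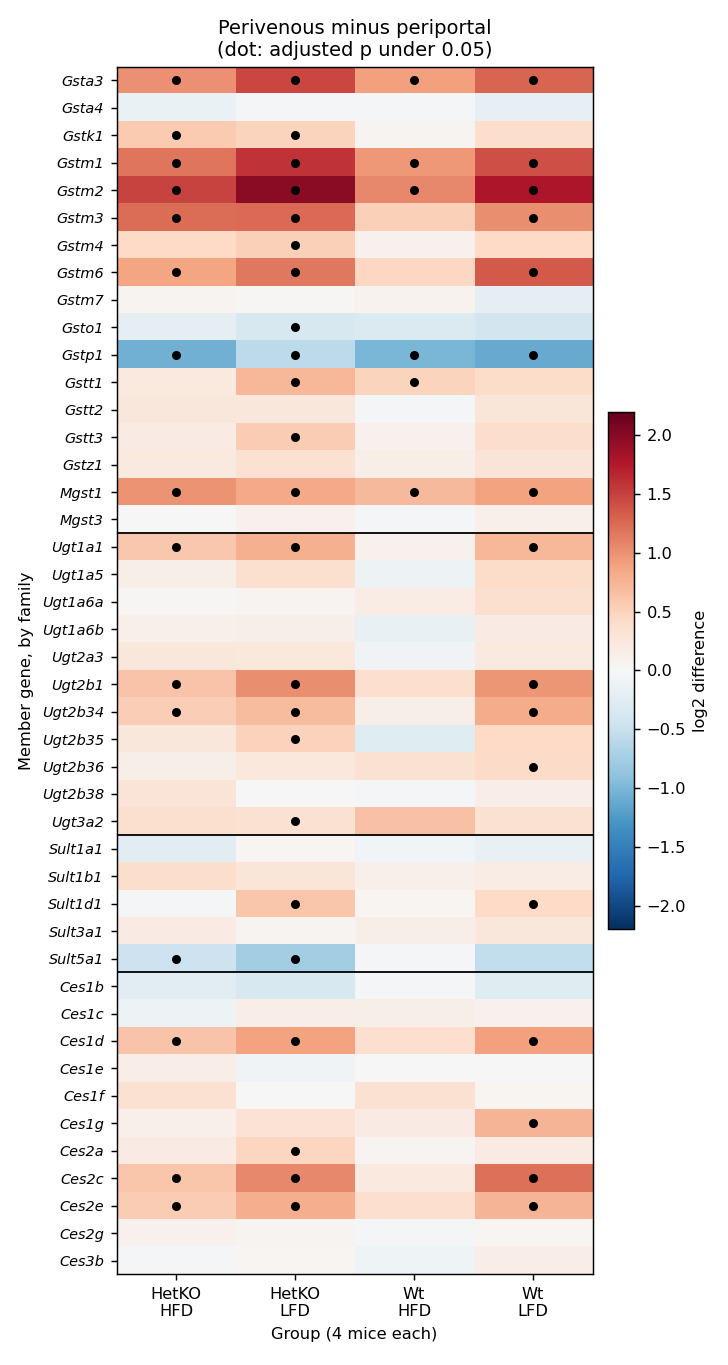
Log2 difference of perivenous minus periportal normalized counts for the 44 tested members (rows, by family) in HetKO HFD, HetKO LFD, Wt HFD and Wt LFD livers (columns). The colour scale gives the difference, and a dot marks an adjusted p under 0.05 (limma, 4 mice per group). Gstm1, Gstm2, Gsta3 and Mgst1 carry a dot as higher in the perivenous zone and Gstp1 as lower in all 4 groups, and the Ugt, Sult and Ces rows have no dot in Wt HFD livers.

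Gstm1, a mu-class enzyme for epoxides and other electrophiles, measured 630.3, 476, 829 and 1605 in the perivenous zones of Wt LFD mice 1 to 4 and 215, 174, 359 and 566 normalized counts in their periportal zones. In Wt HFD mice 1 to 4 it measured 1133, 248, 405 and 111 in perivenous and 711, 99.96, 230.4 and 55 in periportal zones. Within every mouse the perivenous value was the higher, although mice of a group differed from each other by more than their zones did and the ranges of the zones overlapped. On the HFD the log2 difference was 1.17 (SE 0.11, adjusted p = 3.17e-09) in HetKO and 0.95 (SE 0.11, adjusted p = 1.79e-05) in Wt livers, and on the LFD it was 1.60 (SE 0.12, adjusted p = 1.81e-07) in HetKO and 1.42 (SE 0.11, adjusted p = 8.29e-10) in Wt livers. Its neighbour Gstm2 measured 59.5, 64.8, 91.7 and 131 in perivenous and 33.3, 14.7, 20.7 and 29.7 in periportal zones of Wt LFD mice, with no overlap. Its periportal values lay near the negative probe, above the LOQ in 1 of 12 AOIs, against 11 of 12 in the perivenous zone, so the log2 difference understates the distance between zones. Gstm2 passed in all 4 groups, with log2 differences of 1.49 (HFD) and 1.99 (LFD) in HetKO and 1.06 (HFD) and 1.77 (LFD) in Wt livers.

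Gstm6 measured 55.01, 38.4, 66.98 and 107 in perivenous and 29.03, 23.04, 20.8 and 24.4 in periportal zones of Wt LFD mice, a log2 difference of 1.35 (SE 0.18, adjusted p = 1.11e-05), and passed in HetKO HFD (0.87) and HetKO LFD livers (1.16) as well. Gstm3 passed in the same 3 groups, at 1.24 in HetKO HFD, 1.24 in HetKO LFD and 1.01 in Wt LFD livers. The mu class did not move as a block. Gstm4 passed only in HetKO LFD livers (0.52), and Gstm7 had differences of -0.19 to 0.08 and passed in none, whether these differ from Gstm1 being untested.

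Gsta3, the alpha-class enzyme known in mice for detoxifying aflatoxin epoxide, measured 850.4, 817, 1236 and 1604 in perivenous and 412, 291, 563 and 579 normalized counts in periportal zones of Wt LFD mice 1 to 4. In HetKO HFD mice it measured 889.6, 713, 619.9 and 638 in perivenous and 508, 445, 395 and 172 in periportal zones. In both groups the lowest perivenous mouse lay above the highest periportal one. Log2 differences were 1.01 (HFD) and 1.46 (LFD) in HetKO livers and 0.91 (HFD) and 1.29 (SE 0.11, adjusted p = 7.86e-09) (LFD) in Wt livers, and all 4 passed. Mgst1, a membrane-bound transferase of the endoplasmic reticulum and mitochondria, likewise passed in all 4 groups, at 0.99 (HFD) and 0.83 (LFD) in HetKO and 0.72 (HFD) and 0.89 (LFD) in Wt livers. It averaged 3190.3 ± 1436 in perivenous and 1734 ± 727 normalized counts in periportal zones of Wt LFD mice (SD, n = 4).

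Gstp1, the pi-class enzyme, ran the other way. It measured 611, 1119.8, 1846 and 1413 in the perivenous zones of Wt LFD mice 1 to 4 and 1428, 2981, 3142 and 2885 in their periportal zones. In HetKO HFD mice it measured 569.7, 502, 503 and 553 in perivenous and 1010.3, 1126, 768 and 1695 in periportal zones. The periportal value was higher in every one of these mice. The perivenous minus periportal difference was -1.06 (HFD) and -0.58 (LFD) in HetKO livers and -1.003 (HFD) and -1.11 (SE 0.12, adjusted p = 2.43e-07) (LFD) in Wt livers, all past the threshold. Of 5 listed markers of cholangiocytes, the bile duct cells beside the portal tract, 2 were in the table and 1 was tested. The tested one was lower in the perivenous zone of HetKO HFD (-1.14), HetKO LFD (-1.28) and Wt LFD livers (-1.36). In Wt HFD livers it did not pass (-0.53). The summed level of the 2 was 29.5 to 51.2 in perivenous and 48.5 to 97.7 in periportal zones of Wt LFD mice, and neither was at 0. The negative probe alone read 14.4 to 24.6 in those perivenous zones. On the HFD against the LFD the tested marker had -0.22 in Wt periportal and 0.61 in Wt perivenous zones and passed in neither. The part of these markers in the Gstp1 difference was not tested. Gsto1, an omega-class enzyme that reduces dehydroascorbate, was lower in the perivenous zone of HetKO LFD livers (-0.35).

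The other glutathione transferases differed less. Gstt1, a theta-class enzyme for small halogenated compounds, passed in HetKO LFD (0.73) and Wt HFD livers (0.50), and had 0.41 in Wt LFD livers (adjusted p = 0.0742). Gstt3 passed in HetKO LFD livers (0.57). Gstk1, the kappa-class enzyme of mitochondria and peroxisomes, passed in HetKO HFD (0.58) and HetKO LFD livers (0.49), with 0.38 in Wt LFD livers (adjusted p = 0.0947). Gsta4, Gstm7, Gstt2, Gstz1 and Mgst3 passed in no group.

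**Figure D2:**
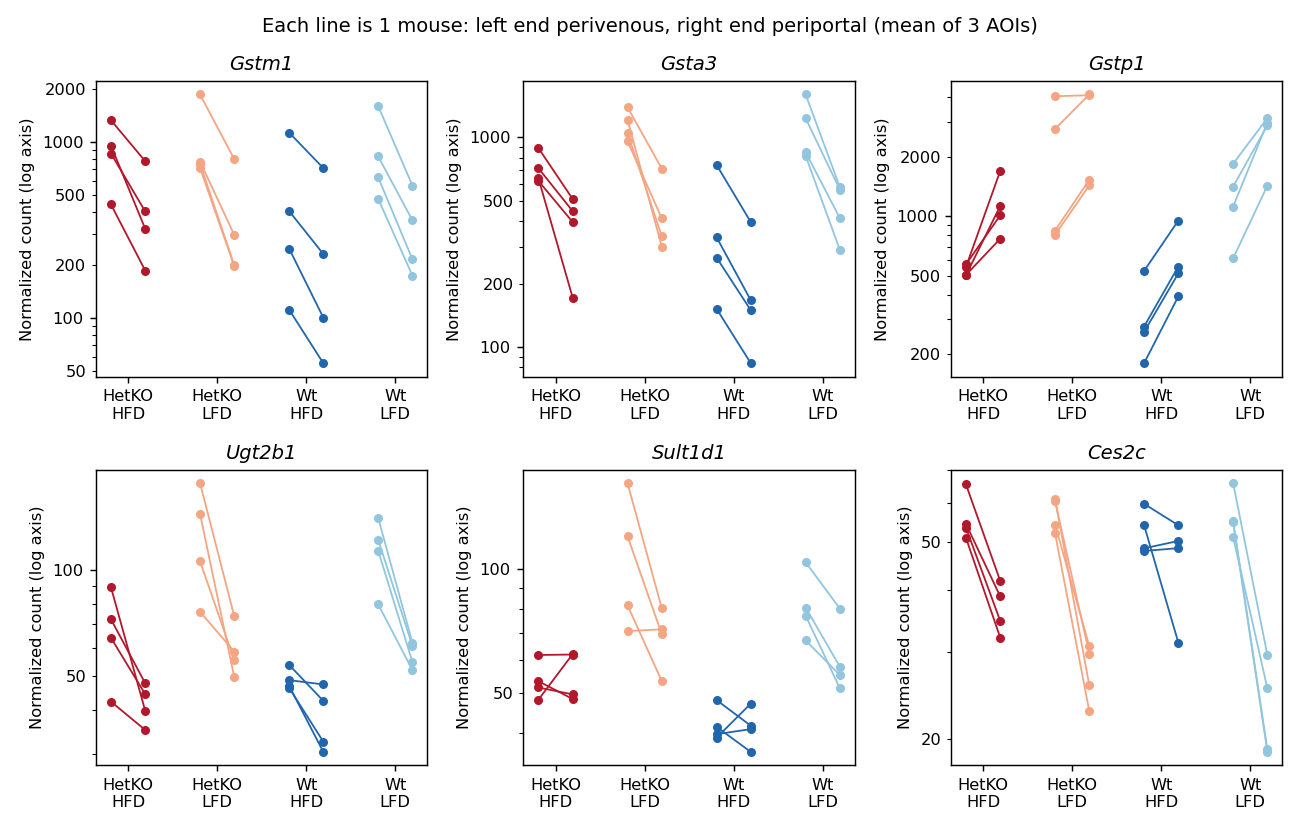
Normalized counts (log axis) of Gstm1, Gsta3, Gstp1, Ugt2b1, Sult1d1 and Ces2c in each mouse, joined by a line from its perivenous value (left) to its periportal value (right), by group. Each point is the mean of 3 AOIs. The lines for Gstm1 and Gsta3 fall and those for Gstp1 climb from left to right in all 4 groups, while the Ces2c lines are steep on the LFD and flat in Wt HFD mice 2 and 4.

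Among the Ugt genes, Ugt2b1, a Ugt2b enzyme of the kind that conjugates steroids and drugs, measured 79.8, 113, 122 and 140.3 in perivenous and 51.9, 54.7, 60.8 and 62.1 in periportal zones of Wt LFD mice. The zones did not overlap. Its log2 difference was 0.96 (SE 0.13, adjusted p = 7.52e-06) in Wt LFD livers, 1.03 in HetKO LFD and 0.63 in HetKO HFD livers, all passing, and 0.36 in Wt HFD livers (adjusted p = 0.312). Ugt2b34 measured 61.05, 91.4, 116 and 94.3 in perivenous and 46.8, 43.5, 54.5 and 58.5 in periportal zones of Wt LFD mice, also without overlap, a log2 difference of 0.81 (SE 0.14, adjusted p = 0.000285). It passed in HetKO HFD (0.55) and HetKO LFD livers (0.70). Ugt1a1, the enzyme that conjugates bilirubin, measured 45.8, 56.5, 46.02 and 58.7 in perivenous and 32.7, 22.96, 32.4 and 35.99 in periportal zones of Wt LFD mice. Its difference of 0.74 (SE 0.16, adjusted p = 0.00304) was 0.55 (adjusted p = 0.0888) without Wt LFD mouse 2, and it passed in HetKO HFD (0.60) and HetKO LFD livers (0.79).

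Ugt2b36 passed in Wt LFD livers alone (0.42), and Ugt2b35 (0.50) and Ugt3a2 (0.34) in HetKO LFD livers alone, and no Ugt gene passed the test of diet on the zone difference in HetKO (smallest adjusted p = 0.86) or Wt livers (0.221). Zone differences were not compared between genotypes. In humans UGT3A2 is known to attach glucose or xylose in place of glucuronic acid. Ugt1a5, Ugt1a6a, Ugt1a6b, Ugt2a3 and Ugt2b38 passed in no group. Of the 11 tested Ugt genes, 11 (HFD) and 10 (LFD) had a difference above 0 in HetKO livers and 6 (HFD) and 11 (LFD) in Wt livers, and none was lower past the threshold in any group.

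Of the sulfotransferases, Sult1d1, which in mice conjugates catecholamines, measured 67.1, 80.7, 77.1 and 104 in perivenous and 55.3, 57.9, 51.3 and 80.2 in periportal zones of Wt LFD mice. The difference of 0.44 (SE 0.13, adjusted p = 0.0314) did not pass without any 1 of the 4 mice, with values of 0.39 to 0.49 and adjusted p of 0.0584 to 0.184. In HetKO LFD livers it was 0.60 (SE 0.13, adjusted p = 0.00693), from 120.4, 81.7, 162 and 70.7 in perivenous and 69.5, 53.4, 80.4 and 71.4 in periportal zones. Sult5a1 measured 31.1, 29.8, 20.2 and 14.6 in perivenous zones of Wt LFD mice, near the negative probe (24.6, 21.7, 16 and 14.4). In their periportal zones it measured 29.98, 50.2, 21.5 and 37.7, where the negative probe read 22, 18, 12.1 and 13.8. There mouse 2 lay above its mean LOQ of 43 and the other mice under theirs. The log2 difference was -0.54 (SE 0.20, adjusted p = 0.13). Without Wt LFD mouse 1 this was -0.75 (adjusted p = 0.0280) and without mouse 3 -0.68 (adjusted p = 0.0415). It was lower in the perivenous zone of HetKO HFD (-0.45) and HetKO LFD livers (-0.77). Sult1a1, the phenol sulfotransferase, measured 296, 273, 340.3 and 387 in perivenous and 313, 283, 451 and 417 in periportal zones of Wt LFD mice, a log2 difference of -0.17 (SE 0.11, adjusted p = 0.492), and passed in no group. Nor did Sult1b1, a sulfotransferase for thyroid hormones, or Sult3a1.

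Among the carboxylesterases, Ces2c measured 51.2, 65.9, 54.96 and 55.3 in perivenous and 25.3, 29.6, 18.8 and 19.04 normalized counts in periportal zones of Wt LFD mice. The zones were far apart, and the periportal values lay at background, above the LOQ in 1 of 12 AOIs against 9 of 12 in the perivenous zone. The log2 difference was 1.21 (SE 0.15, adjusted p = 4.97e-06) in Wt LFD, 1.07 in HetKO LFD and 0.61 in HetKO HFD livers, all passing. Ces1d, a lipase of the endoplasmic reticulum known for releasing fatty acids from stored triacylglycerol for lipoprotein assembly, measured 236, 179.6, 277 and 326 in perivenous and 119, 100.1, 169.5 and 157 in periportal zones of Wt LFD mice. Its difference was 0.90 (SE 0.11, adjusted p = 3.02e-06), and it passed in HetKO HFD (0.63) and HetKO LFD livers (0.88). Ces1g, also a lipid hydrolase, measured 103, 89.6, 119 and 179.5 in perivenous and 57.6, 64.2, 76.9 and 89.05 in periportal zones of Wt LFD mice, a difference of 0.75 (SE 0.12, adjusted p = 0.00019), and did not pass in the other 3 groups. Ces2e passed in HetKO HFD (0.56), HetKO LFD (0.79) and Wt LFD livers (0.75), and Ces2a in HetKO LFD livers (0.47). Ces1b, Ces1c, Ces1e, Ces1f, Ces2g and Ces3b passed in no group.

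The partners of these enzymes showed a mixed zonal picture in Wt LFD livers, where 3.31% of all genes were higher and 3.61% lower. Of 11 transporters tested that move drugs and conjugates in or out of the cell, 7 were higher in the perivenous zone and none lower, including Slco1b2 (2.07) and Slco1a1 (1.09), uptake carriers, and Abcg2 (0.86) and Abcc3 (0.76), efflux pumps. Of 13 xenobiotic sensors and electron partners, 4 were higher: Nr1i3 (2.43), the constitutive androstane receptor, Ahr (1.02), the dioxin receptor, and Por (0.94) and Cyb5a (1.27), which feed electrons to cytochrome P450. Of 12 genes of glutathione synthesis and recycling none was higher and 2 were lower, Cbs (-0.95) and Cth (-0.81), enzymes that lead from homocysteine to cysteine. Of 7 genes of UDP-glucuronate supply and use, 1 passed, Gulo (3.82), which turns glucuronate products to vitamin C in mice. Of 11 genes listed under sulfate donor supply and sulfate removal 1 was higher, Tst (0.58), the gene of thiosulfate sulfurtransferase. Of 14 other conjugating enzymes 3 were higher and 4 lower, and of 11 other hydrolases 3 were higher, led by Pon1 (2.04).

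The second comparison asked how the high-fat diet changed the members. Most that passed were lower on the HFD. In Wt perivenous zones 16 of 44 members were lower and 1 higher, where 11.1% of all genes were lower and 12.9% higher. In Wt periportal zones 16 were lower and 3 higher, where 11.7% of all genes were lower and 18.2% higher. In HetKO perivenous zones 13 were lower and 2 higher, where 8.86% of all genes were lower and 13.6% higher, and in HetKO periportal zones 4 were lower and none higher, where 4.36% were lower and 3.85% higher. One fit over all groups called no member in either HetKO zone (1 gene in all in the perivenous and 2 in the periportal zone). Scaled by nuclei, no member passed in any of the 4 diet comparisons, and 0 and 8 genes did in HetKO perivenous and periportal and 2 and 6 in Wt perivenous and periportal zones. Gstp1, Gsta3, Ces3b, Ces1d, Sult1a1 and Gstz1 had the largest differences of those that passed in Wt perivenous zones, at -1.42 to -2.02. The median difference of the members, HFD minus LFD, was -0.17 in HetKO perivenous, -0.08 in HetKO periportal, -0.54 in Wt perivenous and -0.27 in Wt periportal zones, beside 0.05, 0.02, 0.09 and 0.11 over all genes. The mean LOQ of a Wt HFD mouse was 56.9 to 70.8 normalized counts in perivenous and 46.3 to 70.1 in periportal zones. Values under it are bounds more than levels.

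**Figure D3:**
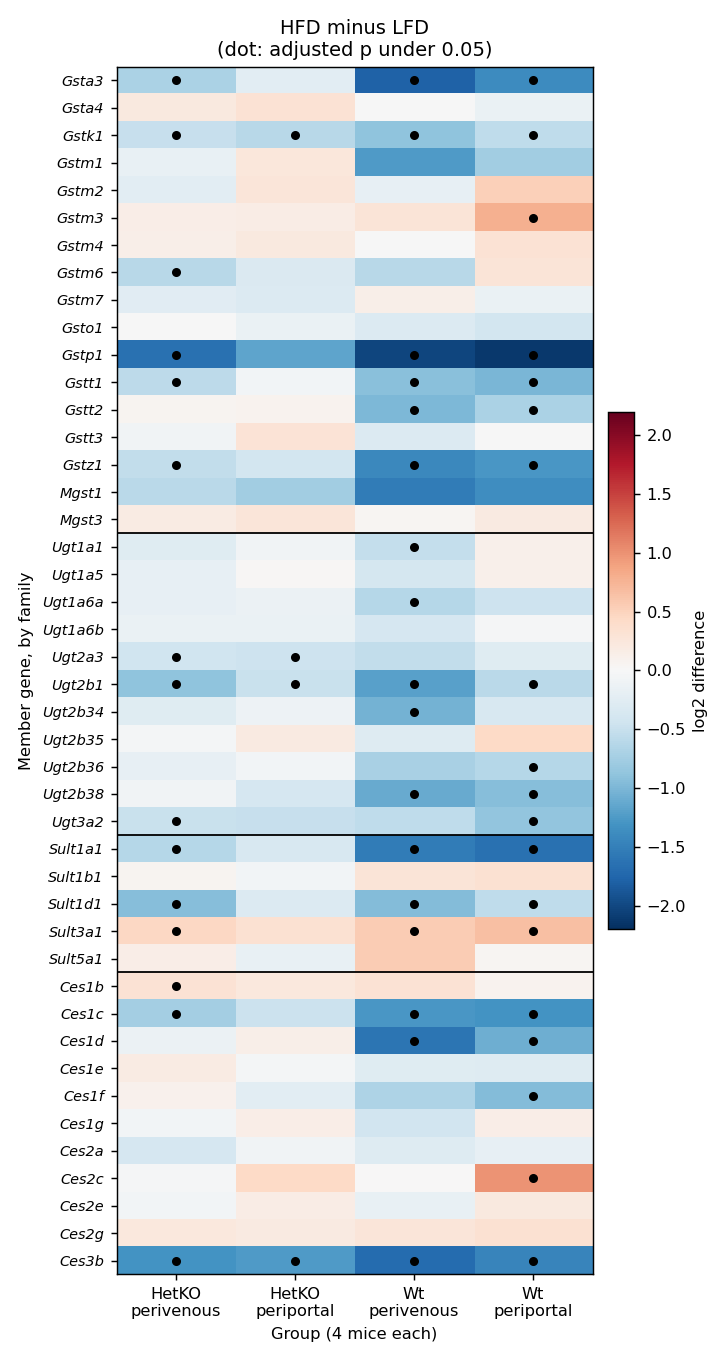
Log2 difference of HFD minus LFD normalized counts for the 44 tested members (rows, by family) in HetKO perivenous, HetKO periportal, Wt perivenous and Wt periportal zones (columns). The colour scale gives the difference, and a dot marks an adjusted p under 0.05 (limma, 4 mice per group). Ces3b, Gstk1 and Ugt2b1 carry a dot in all 4 columns, and Sult3a1 is above 0 in all 4.

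Gstp1 had the largest difference among the members in both zones of Wt livers. It measured 950.4, 392, 513 and 556 in the periportal zones of Wt HFD mice 1 to 4, against 1428, 2981, 3142 and 2885 in Wt LFD mice. In the perivenous zones it measured 528, 179.5, 259 and 275 in Wt HFD mice, against 611, 1119.8, 1846 and 1413 in Wt LFD mice. The diets did not overlap in either zone. Its log2 difference was -2.12 (SE 0.51, adjusted p = 0.0065) in periportal and -2.02 (SE 0.47, adjusted p = 0.011) in perivenous zones. The perivenous call was lost without Wt HFD mouse 2 (-1.80, adjusted p = 0.0554), Wt HFD mouse 3 (-1.97, adjusted p = 0.0513) or Wt LFD mouse 3 (-1.79, adjusted p = 0.0543). In HetKO livers it measured 569.7, 502, 503 and 553 in HFD, against 2769, 845, 4058 and 804 in LFD perivenous zones, where HetKO LFD mice 1 and 3 stood far above mice 2 and 4. That difference was -1.64 (SE 0.41, adjusted p = 0.0123), and in HetKO periportal zones it was -1.16 (SE 0.36, adjusted p = 0.0512).

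Gsta3 was the next largest glutathione transferase in Wt perivenous zones, at 739.7, 267, 334 and 152 in Wt HFD mice, against 850.4, 817, 1236 and 1604 in Wt LFD mice. Wt HFD mouse 1, at 739.7, lay close to the lowest LFD mouse and well above Wt HFD mice 2 to 4. Its log2 difference was -1.77 (SE 0.49, adjusted p = 0.0199) in perivenous and -1.39 (SE 0.41, adjusted p = 0.0168) in periportal zones, and -0.70 (SE 0.21, adjusted p = 0.0295) in HetKO perivenous zones. Gstz1, the maleylacetoacetate isomerase of tyrosine breakdown, measured 352, 146, 194 and 109.7 in Wt HFD, against 373, 479, 488 and 651 in Wt LFD perivenous zones, and 331, 133, 158 and 108 in Wt HFD, against 310.2, 411, 404 and 507 in Wt LFD periportal zones. Its difference was -1.42 (SE 0.38, adjusted p = 0.0168) in the perivenous and -1.28 (SE 0.36, adjusted p = 0.0141) in the periportal zone, where the call was lost without Wt HFD mouse 2 (-1.16, adjusted p = 0.0652), Wt HFD mouse 4 (-1.07, adjusted p = 0.0533) or Wt LFD mouse 4 (-1.16, adjusted p = 0.0530). Wt HFD mouse 1 lay above the lowest LFD mouse in the periportal zone and just under it in the perivenous zone. In HetKO perivenous zones Gstz1 was -0.54 (adjusted p = 0.0342).

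Gstk1 was the glutathione transferase that was lower on the HFD in both zones of both genotypes. It measured 53, 60.1, 56.6 and 62.4 in HetKO HFD, against 83.7, 77.8, 80.8 and 89.9 in HetKO LFD perivenous zones, and 41.4, 40.9, 44.2 and 38.7 in Wt HFD, against 68.3, 79.5, 73.5 and 85.4 in Wt LFD perivenous zones. No HFD value in either pair reached the lowest LFD value. Its log2 differences were -0.51 in HetKO perivenous, -0.61 in HetKO periportal, -0.88 (SE 0.17, adjusted p = 0.00801) in Wt perivenous and -0.55 in Wt periportal zones. In Wt HFD perivenous zones it was above the LOQ in 0 of 12 AOIs, against 12 of 12 in Wt LFD, so its HFD level there could not be told from background.

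Gstt1 and Gstt2 of the theta class were lower in both zones of Wt livers. Gstt1 measured 92.6, 56.1, 56.8 and 40.3 in Wt HFD, against 95.2, 72.2, 139 and 200.2 in Wt LFD periportal zones, a log2 difference of -1.01 (SE 0.29, adjusted p = 0.0158), which did not pass without Wt HFD mouse 2 (-0.98, adjusted p = 0.0519), Wt HFD mouse 4 (-0.83, adjusted p = 0.0654), Wt LFD mouse 3 (-0.93, adjusted p = 0.0511) or Wt LFD mouse 4 (-0.75, adjusted p = 0.0700). The diets overlapped there through Wt HFD mouse 1. It was -0.92 (adjusted p = 0.0495) in Wt and -0.57 (adjusted p = 0.0199) in HetKO perivenous zones. Gstt2, a theta-class enzyme for sulfate esters, measured 60.3, 39.9, 26.7 and 36.7 in Wt HFD, against 63.1, 62.1, 90.8 and 99.01 in Wt LFD perivenous zones, with no overlap. Its difference of -0.99 (SE 0.23, adjusted p = 0.0112) did not pass without Wt HFD mouse 3 (-0.81, adjusted p = 0.0541), Wt LFD mouse 3 (-0.91, adjusted p = 0.0510) or Wt LFD mouse 4 (-0.87, adjusted p = 0.0517), and in periportal zones it was -0.69 (adjusted p = 0.0166). The perivenous Gstt2 values of Wt HFD mice 3 and 4 lay under their negative probe (31.3 and 38.9), and that of mouse 2 under its mean LOQ (69.1).

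The genes with strong zoning were not all lower on the HFD past the threshold. Gstm1 had -1.24 in Wt perivenous (adjusted p = 0.12) and -0.77 in Wt periportal zones (adjusted p = 0.293), with Wt HFD mouse 1 at 1133 and mice 2 to 4 at 111 to 405 in the perivenous zone. Mgst1 had -1.53 (adjusted p = 0.0962) and -1.36 (adjusted p = 0.0599) there. Without Wt HFD mouse 1, both passed in both zones, Gstm1 at -1.83 and -1.44 and Mgst1 at -1.94 and -1.77 in perivenous and periportal zones. Gstm6 was lower in HetKO perivenous zones (-0.62). Gsta4, Gstm2, Gstm4, Gstm7, Gsto1, Gstt3 and Mgst3 passed in no diet comparison.

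Among the Ugt genes, Ugt2b1 was lower on the HFD in all 4 comparisons. It measured 53.7, 46.9, 46.3 and 48.6 in Wt HFD, against 79.8, 113, 122 and 140.3 in Wt LFD perivenous zones, and 42.5, 30.4, 32.5 and 47.3 in Wt HFD, against 51.9, 54.7, 60.8 and 62.1 in Wt LFD periportal zones. No HFD value reached the lowest LFD value of its zone, and each lay under the mean LOQ of its mouse and zone. The log2 difference was -1.19 (SE 0.21, adjusted p = 0.00547) in Wt perivenous, -0.59 in Wt periportal, -0.88 in HetKO perivenous and -0.48 in HetKO periportal zones. The Wt periportal call was lost without Wt HFD mouse 2 (-0.48), Wt HFD mouse 3 (-0.52), Wt LFD mouse 3 (-0.55) or Wt LFD mouse 4 (-0.55), at adjusted p of 0.0584 to 0.0871.

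Ugt2b38 measured 103, 58.5, 72.7 and 54.7 in Wt HFD, against 112, 119, 169 and 147 in Wt LFD periportal zones, and 102, 53.4, 81.5 and 48.6 in Wt HFD, against 105, 114, 182 and 219.7 in Wt LFD perivenous zones. Neither pair overlapped, although Wt HFD mouse 1 came close to the lowest LFD mouse. Its differences were -0.94 (SE 0.25, adjusted p = 0.00993) and -1.11 (SE 0.29, adjusted p = 0.0154) in periportal and perivenous zones, and the perivenous call was lost without Wt HFD mouse 2 (-0.998), Wt HFD mouse 4 (-0.96), Wt LFD mouse 3 (-1.01) or Wt LFD mouse 4 (-0.92), at adjusted p of 0.0552 to 0.0650. Ugt2b34 measured 56.03, 32.96, 46.3 and 39.9 in Wt HFD, against 61.05, 91.4, 116 and 94.3 in Wt LFD perivenous zones, a difference of -1.03 (SE 0.23, adjusted p = 0.00963). Each of these HFD values of Ugt2b34 lay under the mean LOQ of the same mouse. Ugt3a2 measured 19.1, 25.5, 19.4 and 24.8 in Wt HFD, against 30.8, 45.1, 37.9 and 52.5 in Wt LFD periportal zones, a difference of -0.87 (SE 0.23, adjusted p = 0.00933), and was lower in HetKO perivenous zones (-0.49). Each of these HFD values of Ugt3a2 lay under the negative probe of the same mouse. Ugt1a1 (-0.52) and Ugt1a6a (-0.63), an enzyme for simple phenols, were lower in Wt perivenous zones, Ugt2b36 in Wt periportal zones (-0.63) and Ugt2a3 in HetKO perivenous (-0.44) and HetKO periportal zones (-0.45). Ugt1a5, Ugt1a6b and Ugt2b35 passed in no diet comparison.

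**Figure D4:**
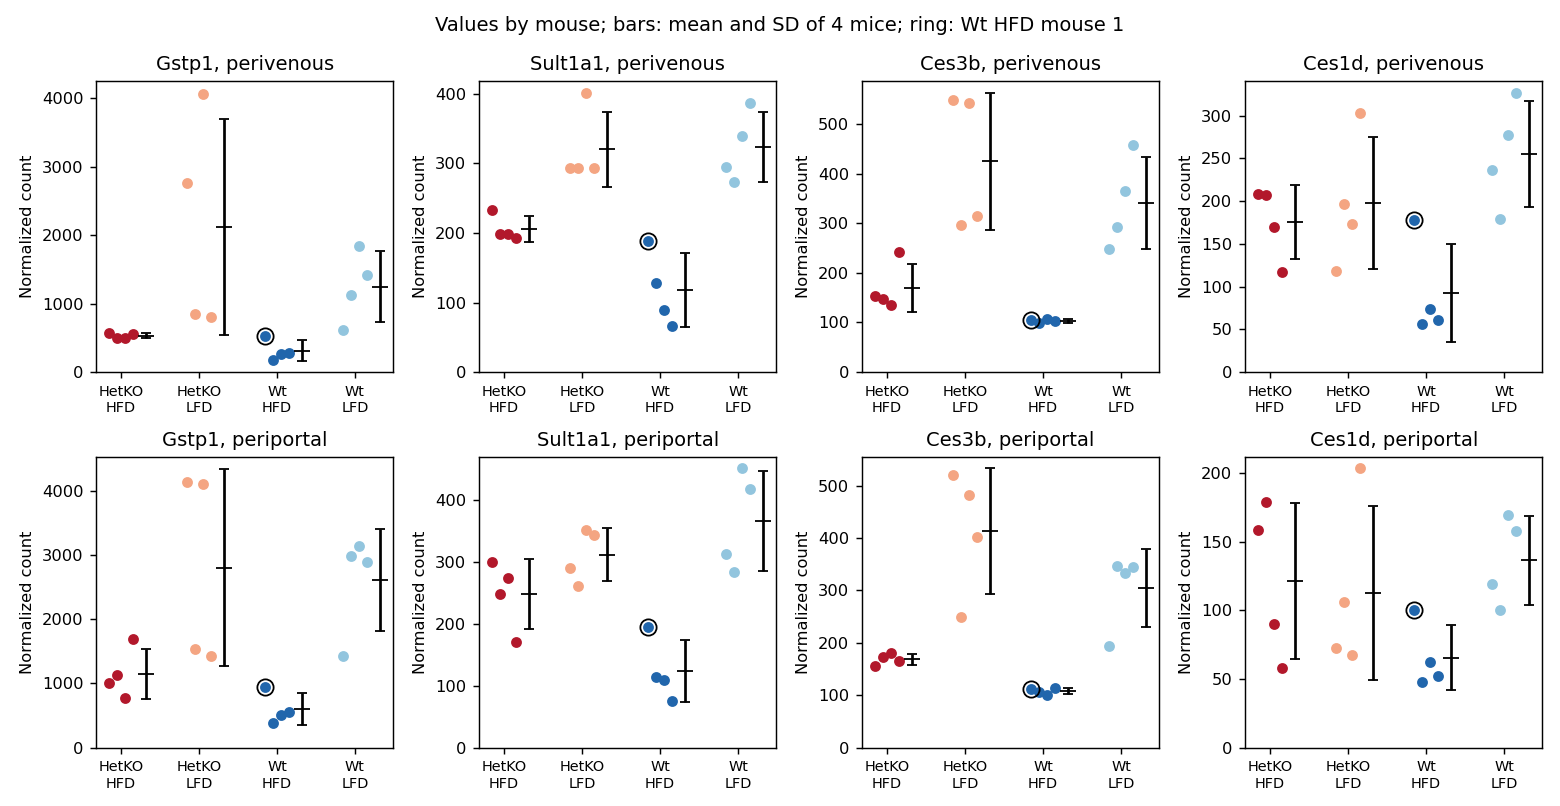
Normalized counts of Gstp1, Sult1a1, Ces3b and Ces1d by mouse in perivenous and periportal zones of each group, with the mean and SD as bars (n = 4 mice). A ring marks Wt HFD mouse 1, which is the highest of its group for Gstp1, Sult1a1 and Ces1d in both zones. Ces3b is lower in every HFD mouse than in any LFD mouse of its genotype and zone.

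Sult1a1 had the largest difference among the sulfotransferases. It measured 195, 114, 109.9 and 76.3 in Wt HFD, against 313, 283, 451 and 417 in Wt LFD periportal zones, and 189, 129, 89.8 and 66.02 in Wt HFD, against 296, 273, 340.3 and 387 in Wt LFD perivenous zones. Every HFD mouse lay under every LFD mouse in both zones. The log2 difference was -1.64 (SE 0.33, adjusted p = 0.00309) in periportal and -1.54 (SE 0.33, adjusted p = 0.00866) in perivenous zones. In HetKO perivenous zones it measured 233, 199, 198 and 193 in HFD, against 293, 293, 402 and 294 in LFD mice, a difference of -0.63 (SE 0.16, adjusted p = 0.0156), and in HetKO periportal zones the difference was -0.35 (SE 0.19, adjusted p = 0.239). Sult1d1 measured 48.02, 38.9, 39.7 and 41.3 in Wt HFD, against 67.1, 80.7, 77.1 and 104 in Wt LFD perivenous zones, also without overlap. Its HFD values there each lay under the mean LOQ of the same mouse. It differed by -0.96 (SE 0.19, adjusted p = 0.0082) there, by -0.94 in HetKO perivenous zones and by -0.55 (adjusted p = 0.0262) in Wt periportal zones, where the call was lost without Wt HFD mouse 3 (-0.55), Wt HFD mouse 4 (-0.50) or Wt LFD mouse 4 (-0.42), at adjusted p of 0.0604 to 0.0998.

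Ces3b was the carboxylesterase that passed in all 4 comparisons. It measured 154, 147, 136 and 241 in HetKO HFD, against 547, 297, 541 and 314 in HetKO LFD perivenous zones, and 156, 173, 181 and 165 in HetKO HFD, against 519, 249, 482 and 403 in HetKO LFD periportal zones. In Wt perivenous zones it measured 105, 97.9, 107 and 102 on the HFD, against 248, 292, 366 and 458 on the LFD, and in Wt periportal zones 113, 105, 101 and 113 on the HFD, against 194, 346, 333 and 345 on the LFD. The diets did not overlap in any of the 4, and the Wt HFD mice, mouse 1 included, lay close together. The log2 differences were -1.31 (SE 0.23, adjusted p = 0.00529) in HetKO perivenous, -1.24 (SE 0.20, adjusted p = 0.015) in HetKO periportal, -1.70 (SE 0.28, adjusted p = 0.00527) in Wt perivenous and -1.45 (SE 0.29, adjusted p = 0.00309) in Wt periportal zones.

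Ces1d measured 177, 56.7, 73.9 and 60.5 in Wt HFD, against 236, 179.6, 277 and 326 in Wt LFD perivenous zones, where Wt HFD mouse 1 stood at the level of the lowest LFD mouse. The difference was -1.60 (SE 0.33, adjusted p = 0.00866), and -1.08 (SE 0.26, adjusted p = 0.00633) in Wt periportal zones. In HetKO livers it averaged 176 ± 42.8 in HFD and 198 ± 77.3 in LFD perivenous zones (SD, n = 4 each), and neither zone passed. Ces1c, known as the carboxylesterase that mice secrete into plasma, measured 464, 342, 312 and 197 in Wt HFD, against 644, 621, 885 and 1047 in Wt LFD periportal zones, a difference of -1.31 (SE 0.40, adjusted p = 0.0208). In Wt perivenous zones it measured 559, 301, 361 and 229.5 on the HFD, against 667, 549, 1134 and 1143 on the LFD, a difference of -1.28 (SE 0.44, adjusted p = 0.0417). That call was lost without any of Wt HFD mice 2, 3 and 4 (-1.22, -1.30 and -1.09) or Wt LFD mice 2, 3 and 4 (-1.48, -1.13 and -1.13), at adjusted p of 0.0504 to 0.130. In HetKO perivenous zones it was -0.74 (adjusted p = 0.0179). Ces1f was lower in Wt periportal zones (-0.95). Ces1e, Ces1g, Ces2a, Ces2e and Ces2g passed in no diet comparison.

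The members that were higher on the HFD all lay near the LOQ. Sult3a1, which in mice puts sulfate on amines, measured 37.3, 65.3, 51.6 and 52.6 in Wt HFD, against 48.96, 27.6, 22.1 and 35.3 in Wt LFD periportal zones, and 45.6, 52.5, 65.2 and 59.7 in Wt HFD, against 48.4, 35.3, 38.4 and 30.04 in Wt LFD perivenous zones. Its differences were 0.66 (SE 0.22, adjusted p = 0.03) in periportal and 0.55 (SE 0.19, adjusted p = 0.0429) in perivenous zones, and 0.46 (adjusted p = 0.0276) in HetKO perivenous zones. In each Wt zone the call was lost when any 1 mouse other than Wt HFD 1 or Wt LFD 1 was left out, with values of 0.46 to 0.71 in periportal and 0.45 to 0.58 in perivenous zones. Ces2c in Wt periportal zones measured 31.3, 48.7, 54.2 and 50.3 on the HFD, against 25.3, 29.6, 18.8 and 19.04 on the LFD, a difference of 0.997 (SE 0.22, adjusted p = 0.00411). Gstm3 passed in Wt periportal zones (0.77) and Ces1b in HetKO perivenous zones (0.32). The negative probe moved the same way, averaging 29.7 in Wt HFD and 16.5 in Wt LFD periportal zones. Sult3a1, Ces2c and Gstm3 were above the LOQ in 1, 0 and 2 of 12 Wt HFD periportal AOIs. With the negative probe subtracted from each AOI, Sult3a1 had an adjusted p of 0.592 in periportal and 0.375 in perivenous zones, and Ces2c of 0.0948.

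**Figure D5:**
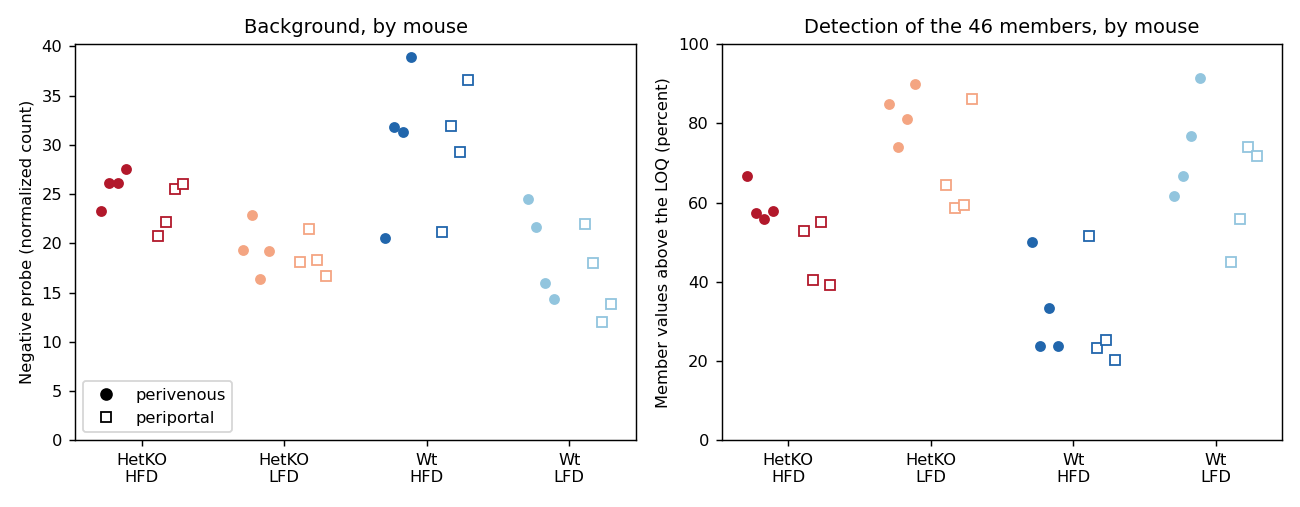
Normalized counts of the negative probe and the percent of member values above the LOQ, by mouse in each group, with filled points for perivenous and open points for periportal AOIs. Wt HFD mice 2 to 4 have the highest negative probe, at 29.3 to 38.9, and the lowest share of member values above the LOQ, at 20.3% to 33.3%, and Wt HFD mouse 1, at 20.5 and 21.2, lies near the HetKO HFD mice.

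Counts of members that passed moved with single mice. In Wt periportal zones the 19 became 9, 11 and 9 without Wt HFD mice 2, 3 and 4, and 11 and 8 without Wt LFD mice 3 and 4, where 13.5% to 17.5% of all genes passed. In Wt perivenous zones the 17 became 8, 8 and 9 without Wt HFD mice 2, 3 and 4, and 7 and 8 without Wt LFD mice 3 and 4, where 4.32% to 6.80% of all genes passed. Without Wt HFD mouse 1, whose background was lowest, 22 passed in periportal and 24 in perivenous zones, beside 43.3% and 42% of all genes. The log2 differences in perivenous and periportal zones were then -2.31 and -2.37 for Gstp1, -2.18 and -1.79 for Gsta3, -1.74 and -1.61 for Gstz1 and -1.21 and -1.23 for Gstt1. They were -1.23 and -0.64 for Ugt2b1, -1.30 and -1.13 for Ugt2b38 and -1.80 and -1.89 for Sult1a1, and -1.71 and -1.47 for Ces3b, -1.97 and -1.30 for Ces1d and -1.51 and -1.50 for Ces1c, all past the threshold. In HetKO perivenous zones the 15 became 9 and 7 without HetKO HFD mice 2 and 3, 10 without HetKO HFD mouse 4, and 9 and 8 without HetKO LFD mice 1 and 3, where 11.01% to 14.2% of all genes passed. In HetKO periportal zones the 4 became 1 without any of HetKO HFD mice 2, 3 and 4 or HetKO LFD mouse 3, 2 without HetKO LFD mouse 4, 0 without HetKO LFD mouse 1 (0.0294% to 2.40% of all genes) and 9 without HetKO LFD mouse 2 (15.8%). The summed level of hepatocyte markers differed between diets too, from 7871 to 34919 in Wt HFD and from 39177 to 79107 in Wt LFD periportal zones. Of the 4 markers tested there, 1 passed, as lower on the HFD. The part of these markers in the member differences was not tested.

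Genes that serve these enzymes were counted the same way in Wt livers, beside 11.1% of all genes lower in perivenous and 11.7% in periportal zones. Of 13 sensors and electron partners, 8 were lower in each zone and 1 higher in the periportal zone, with Nr1i3 (-1.84) and Por (-1.11) in the perivenous zone. Of 14 other conjugating enzymes, 8 were lower in perivenous and 9 in periportal zones, including Gnmt, glycine N-methyltransferase, at -1.70 and -1.99. Of 11 transporters, 2 were lower and 1 higher in each zone: the uptake carriers Slco1a1 (-2.204 and -2.11) and Slco1b2 (-1.59 and -0.98) were lower and the efflux pump Abcc4 (0.89 and 0.72) higher in perivenous and periportal zones. Of 7 genes of UDP-glucuronate supply and use, 2 were lower in each zone, with Ugp2, which makes UDP-glucose, at -1.16 in the perivenous and -0.997 in the periportal zone. Of 12 genes of glutathione synthesis and recycling, 3 were lower and 1 higher in each zone. Of 11 genes listed under sulfate donor supply and sulfate removal, 3 were lower in perivenous and 2 in periportal zones, and of 11 other hydrolases 4 and 3. In HetKO perivenous zones 4 of 13 sensors and partners and 5 of 14 other conjugating enzymes were lower and none of either list was higher, beside 8.86% of all genes lower.

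The third comparison asked whether loss of 1 Gaa allele changed the members. None of the 44 passed limma's test in any of the 4 comparisons of HetKO with Wt, and 0% of all 6805 genes did. At an unadjusted p under 0.05, 14 members stood in HFD perivenous, 14 in HFD periportal, 0 in LFD perivenous and 1 in LFD periportal zones, beside 939, 973, 104 and 235 genes in all. Of the count models, edgeR called no member in any of the 4 and DESeq2 called 1, in HFD perivenous zones, where it called 17 genes in all. Scaled by nuclei, 27 members were higher in HetKO LFD periportal zones, as were 5659 of the 6805 genes, and 1 member and 10 genes were in HetKO HFD perivenous zones. The Wt HFD livers enter both this comparison and that of the diets. The median difference of the members, HetKO minus Wt, was 0.28 in HFD perivenous, 0.17 in HFD periportal, 0.05 in LFD perivenous and 0.02 in LFD periportal zones, beside 0.03, -0.01, 0.07 and 0.07 over all genes, and 37, 27, 25 and 27 of 44 were above 0.

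On the HFD the smallest p among the members in periportal zones was that of Sult1a1, which measured 301, 249, 274 and 171 in HetKO mice 1 to 4, against 195, 114, 109.9 and 76.3 in Wt mice, with overlap through HetKO mouse 4 and Wt mouse 1. The log2 difference was 1.07 (95% interval 0.45 to 1.69, adjusted p = 0.243). Gstt1 measured 113, 98.6, 113 and 85.2 in HetKO and 92.6, 56.1, 56.8 and 40.3 in Wt periportal zones, a difference of 0.80 (95% interval 0.34 to 1.27, adjusted p = 0.243). In perivenous zones Ugt2b34 measured 87.4, 68.98, 61.6 and 68.5 in HetKO mice, against 56.03, 32.96, 46.3 and 39.9 in Wt mice, without overlap, a difference of 0.72 (95% interval 0.35 to 1.10, adjusted p = 0.305). Ugt2b38 measured 164, 133, 119 and 104 in HetKO and 102, 53.4, 81.5 and 48.6 in Wt perivenous zones, where Wt mouse 1 came close to the lowest HetKO mouse. Its difference was 0.91 (95% interval 0.39 to 1.42, adjusted p = 0.305). The intervals, which are not adjusted for the number of genes, leave out 0.

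These values rested on Wt HFD mouse 1 in particular. Without it, 18 members were higher in HetKO perivenous zones and none lower (23.03% of all genes passed, 1567 in number), and 15 were higher and 1 lower in HetKO periportal zones (20.4% of all genes, 1390). Sult1a1 was then 1.33 (adjusted p = 0.000167) and Gstt1 1.03 (adjusted p = 0.000205) in periportal zones, and Ugt2b34 0.85 (adjusted p = 0.00031) and Ugt2b38 1.10 (adjusted p = 0.000198) in perivenous zones. Gstm1 was 1.90 and 1.76, Gsta3 1.56 and 1.46 and Ces1d 1.43 and 1.02 in perivenous and periportal zones, and Ces2c (-0.47) was the 1 that was lower. Without any other single mouse, 0 members passed. The 3 Wt mice then left had the highest negative probe of all mice, and the part of that background in the difference was not tested. The hepatocyte marker sum had a higher mean in HetKO mice on the HFD, with overlap. It averaged 18955 (13461 to 23755) in HetKO and 10766 (3229 to 22175) in Wt perivenous zones. In periportal zones it averaged 39755 (31810 to 47796) in HetKO and 20064 (7871 to 34919) in Wt mice. None of the 4 markers tested passed between genotypes in either zone, and the part of this sum was not tested either.

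On the LFD the members with the smallest p in periportal zones were Sult5a1, at 69.9, 36.1, 44.05 and 42.6 in HetKO and 29.98, 50.2, 21.5 and 37.7 in Wt mice, a difference of 0.49 (95% interval 0.0021 to 0.98), and Ces3b, at 519, 249, 482 and 403 in HetKO and 194, 346, 333 and 345 in Wt mice, a difference of 0.42 (-0.14 to 0.98). In perivenous zones they were Gstm7, at 48.5, 45.5, 40.3 and 49.01 in HetKO and 36.3, 37.7, 35.2 and 51.6 in Wt mice, a difference of 0.27 (-0.07 to 0.61), and Gstt2, at 42.3, 72.8, 38.9 and 93.3 in HetKO and 63.1, 62.1, 90.8 and 99.01 in Wt mice, a difference of -0.40 (-0.92 to 0.13). All 4 overlapped between genotypes and had adjusted p of 0.999. Intervals of this width do not show that the genotypes were alike.

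Whether diet changed the zone difference was tested within each genotype. In Wt livers 1 member passed, Ces2c, and 0.661% of all genes did. The zone markers moved with diet as well: 4 of 5 perivenous markers had a lower (median -1.48) and 3 of 5 periportal ones a higher zone difference on the HFD (median 1.36), and their part in the Ces2c value was not tested. Its perivenous minus periportal difference was 0.22 on the HFD, against 1.21 on the LFD. On the HFD it measured 54.2, 48.04, 59.9 and 48.6 in perivenous and 31.3, 48.7, 54.2 and 50.3 in periportal zones of Wt mice 1 to 4, and on the LFD 51.2, 65.9, 54.96 and 55.3 in perivenous and 25.3, 29.6, 18.8 and 19.04 in periportal zones. The perivenous ranges of the diets overlapped, while every periportal value was higher on the HFD than on the LFD, as was the mean of the negative probe. The interaction was -0.99 (SE 0.22, adjusted p = 0.0177). It did not pass without Wt HFD mouse 2, 3 or 4 (-0.93, -0.96 and -0.91) or Wt LFD mouse 2 or 4 (-0.99 and -0.88), nor with the negative probe subtracted. Gstm6 came next, with zone differences of 0.46 on the HFD and 1.35 on the LFD in Wt livers, from 52.9, 35.6, 42.9 and 35.2 in perivenous and 33.8, 19.5, 36.2 and 29.5 in periportal zones of Wt HFD mice. Its interaction was -0.89 (SE 0.25, adjusted p = 0.136).

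In HetKO livers no member passed limma's interaction test, 9 had an unadjusted p under 0.05, edgeR and DESeq2 called none, and 0.0735% of all genes passed limma's test. Sult1d1 had the smallest p, with zone differences of -0.05 on the HFD and 0.60 on the LFD, from 48.1, 53.4, 61.9 and 51.5 in perivenous and 62.2, 48.3, 62.01 and 49.6 in periportal zones of HetKO HFD mice. The interaction was -0.65 (SE 0.18, adjusted p = 0.373), and 2 members (0.456% of all genes) passed without HetKO LFD mouse 4, Sult1d1 at -0.85 (adjusted p = 0.00514) among them. Ces2c measured 51.1, 54.5, 53.6 and 65.5 in perivenous and 32.1, 38.9, 34.7 and 41.8 in periportal zones of HetKO HFD mice, and its interaction of -0.46 (SE 0.15, adjusted p = 0.79) had the sign seen in Wt livers.

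Whether the diet response differed between genotypes was tested in each zone. No member passed limma's test in either zone, and 0% of all genes did. At an unadjusted p under 0.05 stood 6 members in perivenous and 8 in periportal zones, beside 370 and 702 genes in all, and edgeR and DESeq2 called none. Sult1a1 had the smallest p in periportal zones. On the HFD it measured 301, 249, 274 and 171 in HetKO and 195, 114, 109.9 and 76.3 in Wt mice, and on the LFD 290.4, 261, 352 and 343 in HetKO and 313, 283, 451 and 417 in Wt mice. The difference of the responses, HetKO minus Wt, was 1.29 (SE 0.38, adjusted p = 0.462), with a 95% interval of 0.51 to 2.06. Ces1d had 1.20 (SE 0.46, adjusted p = 0.462) in periportal and 1.47 (SE 0.45, adjusted p = 0.794) in perivenous zones, where it measured 208, 207, 169.8 and 117 (HetKO) and 177, 56.7, 73.9 and 60.5 (Wt) on the HFD and 119, 196, 173 and 303 (HetKO) and 236, 179.6, 277 and 326 (Wt) on the LFD. Gstt2 followed in perivenous zones at 1.06 (SE 0.34, adjusted p = 0.794), with 66.7, 60.5, 64.9 and 52.8 in HetKO HFD and 42.3, 72.8, 38.9 and 93.3 in HetKO LFD mice. Without Wt HFD mouse 1, 2 members (2.85% of all genes) passed in periportal zones, Sult1a1 at 1.54 (adjusted p = 0.0169) among them, and 1 (0.0882%) in perivenous zones, Ces1d at 1.84 (adjusted p = 0.0343).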

How the data were processed

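The deposited table held GeoMx Digital Spatial Profiler values of 96 AOIs from 5 µm liver sections of 16 mice. Per the labels the authors turned reads into probe counts with the GeoMx NGS Pipeline 2.3.3.10, and the build named is mm10. The deposited signal is the normalized count per gene. The methods describe a scaling to nuclei, but in the deposited file every AOI has an upper quartile of 60.2, which is how the values were read here. The scale of each AOI was taken as its normalized negative probe divided by its deposited negative probe median. Dividing by this scale gave a whole number within 0.01 for 99.96% of values, and these recovered reads entered the count models. The deposited table of AOI properties gives deduplicated read counts (60874 to 1772443, median 536938), nuclei (118 to 788) and sequencing saturation, which the authors give as a percentage (64.1% to 91.6%), besides 7 per-sample columns not used.

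Each value was taken as log2(value + 1), so differences of low genes are understated, and the 3 AOIs taken in each zone of a mouse were averaged. Genes over the LOQ in 10 or more of the 96 AOIs (6805 of 7394) were tested with limma 3.58.1 (R 4.3.3; lmFit and eBayes with a trend), adjusted after Benjamini-Hochberg over all of them, at a threshold of 0.05. Zones were compared within mice, with the mouse as a block, since both zones of a mouse share its number. Diets and genotypes were compared between mice without a block. Mouse numbers did not pair mice across groups: of 32 same-number correlations, from -0.591 to 0.482, 11 were over 0.1, and in 0 comparisons were all of them. For diet and genotype the p-values measure the spread between mice. For zones, and for diet on the zone difference, they measure how the zone difference within a mouse varies from mouse to mouse. Alternatives were edgeR 4.0.16 and DESeq2 1.42.0 on reads summed per mouse and zone (in Wt LFD zones limma called 471 genes, edgeR 624 and DESeq2 317, and for diet in Wt periportal zones 2033, 1955 and 1942), another pseudocount, other filters, other scalings, a fold threshold, other fits and each mouse left out. Subtracting the negative probe and rescaling was added after seeing the data. On simulated data of 6805 genes, log2 changes of 1 and 2 were recovered in 89.3% and 96.9% of genes for the Wt LFD zones and in 78.9% and 100% for diet in Wt periportal zones, and 0.061% of unchanged genes were called. The simulated spread between mice was the same for every gene, with no difference in background or slide. These shares therefore do not give the recovery or the false calls in the measured data.

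Members, gene lists and tests were chosen with earlier results of these data known. Named with values per mouse are, in each family, the 3 members of smallest p in the Wt LFD zone comparison and in each Wt diet comparison, and over all members the 2 of smallest p in each genotype comparison and interaction. Other members that passed are given by their difference. Promoters came from RefSeq (GRCm38.p6), in which 45 of 46 members were matched and 39 had a promoter.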

Additional observations from a re-analysis of the deposited data

Results flagged for a closer look

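In 4 of the 71 groups of 4 mice checked, 1 mouse lay far from the other 3 of its group by Dixon's test, and chance alone would give about 3.5, or about 1 in 20. Ces1d measured 177 in the perivenous zone of Wt HFD mouse 1, above the other 3. Ces3b measured 194 and Gstp1 1428 normalized counts in the periportal zone of Wt LFD mouse 1, both below the other 3. Gstm7 measured 51.6 in the perivenous zone of Wt LFD mouse 4, above the other 3.

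The zone difference of Ces2c in Wt livers differed between the diets by -0.99 on the log2 scale (limma, adjusted p = 0.0177), with the values given above.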

How the results depend on the processing

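Of 889 alternative values for the 52 differences of named members, 759 kept direction and side of the threshold, 109 kept direction but no longer passed, 18 newly passed and 3 changed sign, all 3 under scaling by nuclei: Sult1a1 between Wt LFD zones (0.23), and Sult1d1 (0.052) and Ces2c (0.23) in the diet effect on the HetKO zone difference. A pseudocount of 10 and dropping the filter on low values changed no such call.

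Counts of members that passed moved as follows. Scaling by nuclei gave 34 (HFD) and 1 (LFD) between HetKO zones (3781 and 23 of all 6805 genes) and 0 (HFD) and 1 (LFD) between Wt zones (5 and 29 genes), 0 in all 4 diet comparisons (0 to 8 genes), 1 for genotype in HFD perivenous (10 genes) and 27 in LFD periportal zones (5659 genes), and 0 for diet on the Wt zone difference. It put the median of all genes at 0.84 for genotype in LFD periportal zones, against 0.07 as reported, and at -0.81 for diet in HetKO periportal zones, against 0.02. Relative to that median the members lay at -0.62 in Wt perivenous and -0.38 in Wt periportal zones for diet, against -0.63 and -0.38 as reported. Requiring a log2 difference of 0.8 gave 7 between HetKO HFD zones, 9 between HetKO LFD zones, and 4 in HetKO perivenous, 1 in HetKO periportal and 12 in Wt periportal zones for diet. The share of all genes was not counted for this threshold. A filter at 48 AOIs gave 15 between HetKO LFD zones and 0 for diet on the Wt zone difference, beside 487 and 27 of the 2908 genes it kept. Subtracting the negative probe also gave 0 for that interaction (1 gene in all) and, when rescaled, 7 in HetKO perivenous (461 genes) and 1 in HetKO periportal zones (53 genes) for diet. It moved the median of all genes for diet to -1.02 in both Wt zones, or -0.51 and -0.48 rescaled. For diet in HetKO periportal zones edgeR and DESeq2 gave 8 each (996 and 992 genes in all). DESeq2 gave 1 for genotype in HFD perivenous zones (17 genes in all) and edgeR 2 for diet on the Wt zone difference (81 genes in all). One fit over all groups gave 0 for diet in both HetKO zones. The cause was not tested.

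With no replicate block 7 passed between HetKO LFD zones, 0 between Wt HFD zones and 9 between Wt LFD zones, beside 133, 17 and 151 of all 6805 genes. A replicate block of mouse numbers, which share only a number, gave 8 for diet in Wt perivenous zones (365 of all 6805 genes). For genotype it gave 7 and 5 in HFD perivenous and periportal zones (280 and 199 genes).

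Leaving out each mouse gave 13 to 15 (HFD) and 15 to 21 (LFD) between HetKO zones. Of all genes, 4.70% to 5.17% and 4.53% to 8.48% passed there. Between Wt zones it gave 5 to 7 (HFD) and 13 to 20 (LFD), where 1.76% to 2.47% and 4.73% to 7.76% of all genes passed. For diet, leaving out each mouse gave 7 to 15 in HetKO perivenous and 0 to 9 in HetKO periportal zones. It gave 7 to 24 in Wt perivenous and 8 to 22 in Wt periportal zones. In that order, 11.01% to 27.7%, 0.0294% to 15.8%, 4.32% to 42% and 13.5% to 43.3% of all genes passed. For genotype, leaving out each mouse gave 0 to 18 in HFD perivenous, 0 to 16 in HFD periportal and 0 in LFD zones. Of all genes, 0% to 23.03%, 0% to 20.4% and 0% to 0.0147% passed there. For diet on the zone difference it was 0 to 2 members (HetKO) and 0 to 1 (Wt). Of all genes, 0.0147% to 0.456% and 0.411% to 0.779% passed there. For the diet response between genotypes it was 0 to 1 member (perivenous) and 0 to 2 (periportal). Of all genes, 0% to 0.0882% and 0% to 2.85% passed there. Each group held 4 mice and each diet 1 slide, and members near the LOQ have bounds more than levels. The background of each AOI was read from 1 negative probe value, which the AOI properties give as a median.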
